A study of Rattus norvegicus with 7 samples.

Results

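The expression of 10 genes of the Nrf2 pathway and of glutathione synthesis was examined in cultured rat lenses. The genes were taken by symbol from the annotation of the microarray: Nfe2l2, Keap1, Nqo1, Hmox1, Gclc, Gclm, Gss, Gsr, Slc7a11 and Slc3a2. They are 10 of the 18166 genes named on the array, and each had 1 probe. All 10 are described below, and 9 had a signal above 5 on the log2 scale in at least 1 array, the minimum for the test. Gsr did not reach it and was not tested.

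Lenses were removed from 6-week-old male Sprague Dawley rats and kept whole in culture medium with serum albumin, and total RNA of the lens was hybridised to the GeneChip Rat Gene 2.0 ST, an array with 1 colour. The Control group had 2 arrays, of lenses kept without galactose for 4 days (Control Day 4) and for 6 days (Control Day 6). The Galactose group had 3 arrays, of lenses kept for 6 days with 30 mM galactose, a sugar that makes the lens opaque. The Glutamate group had 2 arrays, of lenses that had the same 6 days in 30 mM galactose and received 20 mM glutamate during the final 3 days. No group had glutamate without galactose. Every group had the same strain and was kept outside the eye, so none shows the lens as it is in the animal. The labels do not say whether arrays of a group came from separate animals, so the p-values measure the spread between these arrays, which may be technical. Fewer cells of a type and less RNA per cell cannot be told apart in RNA of a whole lens.

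Nrf2, the protein of Nfe2l2, is a transcription factor that is held at a low level by Keap1, an adaptor that hands it to the ubiquitin ligase built on Cul3. When electrophiles or oxidants modify Keap1, Nrf2 escapes breakdown, enters the nucleus and binds antioxidant response elements together with small Maf proteins. Its target genes encode quinone and haem enzymes, the enzymes of glutathione synthesis and the cystine transporter. Glutathione, a tripeptide of glutamate, cysteine and glycine, is kept at a very high concentration in the lens and protects the crystallins from oxidation.

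Short stretches before the start sites of 4 members are shown first, because Slc3a2, Nfe2l2 and Gclc had the smallest unadjusted p-values among the members in the comparisons described below, and Gclm, the partner of Gclc, is shown beside it. The antioxidant response element is the site that Nrf2 binds. The sequences are those of RefSeq on the rat assembly GRCr8, written 5′ to 3′ in the direction of the gene. In Slc3a2 (chr1:215039696-215039725, minus strand) and Gclm (chr2:213031937-213031997, plus strand) the capitals mark the core of the antioxidant response element, TGACNNNGC, which lies on the opposite strand in both and is therefore read here in reverse complement. In Nfe2l2 (chr3:81029028-81029057, minus strand) and Gclc (chr8:87510389-87510418, plus strand) the capitals mark GC boxes, GGGCGG on either strand. The stretches of Slc3a2, Nfe2l2 and Gclc lie inside the span annotated for the gene, which includes other start sites.
Slc3a2: gcggatcgggGCGGAGTCAtgggtcacttc
Gclm: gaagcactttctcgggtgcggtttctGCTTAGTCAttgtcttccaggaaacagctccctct
Nfe2l2: tCCGCCCtcaggGGGCGGGGGCGGGGCGGa
Gclc: aagcgcgagaccGGGCGGcggcgagagacc

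The core begins 172 bases before the start of Gclm and 45 bases before the more downstream of the 2 listed starts of Slc3a2. Nfe2l2 has a core 39 bases after its start (not shown). The windows searched run from 250 bases before to 50 bases after each listed start, and 8 of the 10 members had a window, 9 windows in all. Hmox1 and Gsr had no window and were not searched. The core was found in 3 of these 9 windows and in 12.1% of all 33469 windows of the rat table. The GC box was found in 7 of the 9 and in 33.1% of all windows, and in Nfe2l2 the stretch shown holds 4 of them. TGATGNAA, the element bound by C/EBP and ATF factors, was found in 0 of the 9 and in 4.0% of all windows. A match of letters is a description and does not show that a factor binds there. Sequence outside these windows was not searched, so a window without a match does not show that the gene lacks the element.

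Nfe2l2 had the highest signals in the Galactose arrays. The log2 signal was 6.26 and 6.00 in Control Day 4 and Day 6, 7.23, 7.71 and 7.50 in Galactose, and 6.36 and 6.51 in Glutamate. The 3 groups did not overlap, and the Glutamate arrays lay just above the Control arrays and far below the Galactose arrays. The Galactose mean was 2.55-fold above the Control mean, a log2 fold change of 1.35 (standard error 0.22, 95% interval 0.82 to 1.88). This difference had an unadjusted p of 0.000566 and an adjusted p of 0.0875 in limma, so it did not pass the threshold of 0.05. For Glutamate over Galactose the log2 fold change was -1.05 (standard error 0.22, 95% interval -1.58 to -0.52; limma adjusted p = 0.606), and for Glutamate over Control it was 0.30 (standard error 0.24, adjusted p = 0.778).

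Keap1, the repressor of Nrf2, differed less between the groups. Log2 signals were 5.65 and 5.06 in Control Day 4 and Day 6, 5.49, 5.40 and 5.63 in Galactose, and 6.14 and 5.73 in Glutamate. Both Glutamate arrays lay above every other array, and the Galactose arrays lay between the Control arrays. The estimated log2 difference was 0.43 for Glutamate over Galactose (standard error 0.25, limma adjusted p = 0.912) and 0.15 for Galactose over Control (standard error 0.25, adjusted p = 0.742).

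**Figure D1:**
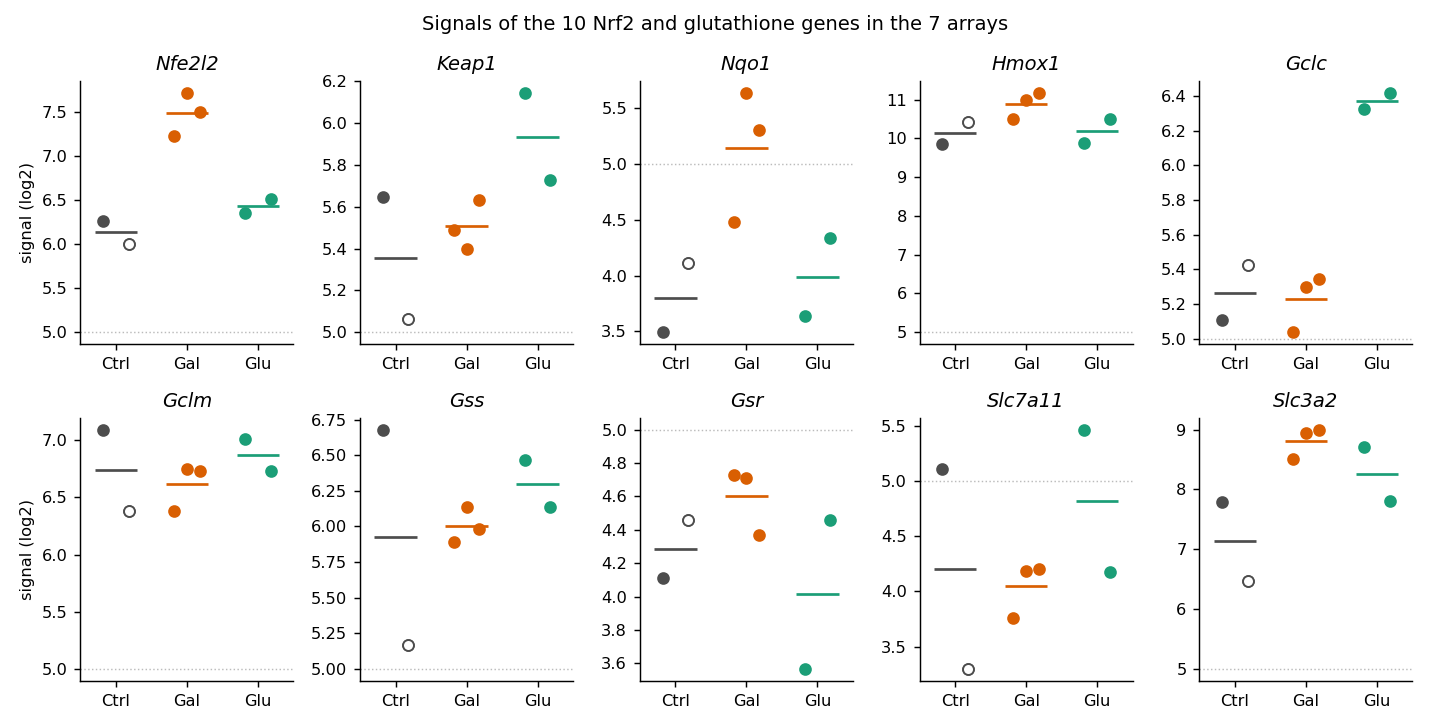
Log2 signal of each of the 10 genes (own vertical axis in each panel, so heights are not comparable between genes) in the Control (Ctrl), Galactose (Gal) and Glutamate (Glu) arrays. Points are single arrays, with Control Day 4 filled and Control Day 6 open, bars are group means and the dotted line marks the minimum of 5. Nfe2l2 was highest in the 3 Galactose arrays (7.23 to 7.71) and Gclc in the 2 Glutamate arrays (6.32 and 6.42).

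Nqo1, a quinone reductase widely used as a readout of Nrf2 activity, had a dim probe. Its log2 signal was 3.49 and 4.11 in Control Day 4 and Day 6, 4.48, 5.64 and 5.31 in Galactose, and 3.64 and 4.33 in Glutamate. Galactose 2 and Galactose 3 were its only arrays above 5, so Nqo1 entered the test only through the group in which it was high. All Galactose arrays lay above all Control and Glutamate arrays, the lowest of them by a small margin. Its log2 fold change was 1.34 for Galactose over Control (standard error 0.41, limma adjusted p = 0.205) and -1.16 for Glutamate over Galactose (standard error 0.41, adjusted p = 0.853).

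Hmox1, haem oxygenase 1, which breaks down haem and is induced by oxidants through Nrf2, had log2 signals of 9.84 and 10.42 in Control Day 4 and Day 6. They were 10.49, 10.98 and 11.17 in Galactose, and 9.88 and 10.49 in Glutamate. Control Day 6 lay close below the lowest Galactose array, and Glutamate 2 was level with that array. The log2 fold change was 0.75 for Galactose over Control (standard error 0.32, limma adjusted p = 0.297) and -0.69 for Glutamate over Galactose (standard error 0.32, adjusted p = 0.894). The Galactose mean lay 1.04 above Control Day 4 and 0.46 above Control Day 6 on the log2 scale, and after a second quantile normalisation it lay 0.28 above the Control mean.

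Gclc, the catalytic subunit of glutamate-cysteine ligase, the rate-limiting enzyme that joins glutamate to cysteine, was high in the Glutamate arrays alone. The log2 signal was 5.11 and 5.42 in Control Day 4 and Day 6, 5.04, 5.30 and 5.35 in Galactose, and 6.32 and 6.42 in Glutamate. The Control and Galactose arrays overlapped, and both Glutamate arrays lay well above all 5 others. The Glutamate mean was 2.21-fold above the Galactose mean, a log2 fold change of 1.14 (standard error 0.21, 95% interval 0.65 to 1.63). It had an unadjusted p of 0.000975 and an adjusted p of 0.606 in limma, which did not pass the threshold. Against Control the Glutamate mean was 2.15-fold higher (log2 fold change 1.11, standard error 0.23, limma adjusted p = 0.658). For Galactose over Control the log2 fold change was -0.04, with a 95% interval from -0.53 to 0.45.

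Gclm, the modifier subunit that makes the ligase more efficient, did not share the pattern of the catalytic subunit. Log2 signals were 7.09 and 6.39 in Control Day 4 and Day 6, 6.38, 6.75 and 6.73 in Galactose, and 7.01 and 6.73 in Glutamate. Arrays of all 3 groups overlapped. Its log2 fold change was -0.12 for Galactose over Control and 0.25 for Glutamate over Galactose (standard error 0.27 for both, limma adjusted p = 0.811 and 0.952).

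Gss, glutathione synthetase, which adds glycine in the second step, had log2 signals of 6.68 and 5.17 in Control Day 4 and Day 6, the highest and the lowest values of the gene. The Galactose arrays had 5.89, 6.13 and 5.99, and the Glutamate arrays had 6.47 and 6.14. All of these lay between the Control arrays, and the Glutamate arrays lay above the Galactose arrays, the nearest pair almost level. The estimated log2 difference was 0.08 for Galactose over Control and 0.30 for Glutamate over Galactose (standard error 0.43 for both, limma adjusted p = 0.921 and 0.965). Against Control Day 6 alone, the log2 fold change of Gss was 0.84 in Galactose and 1.13 in Glutamate. Against Control Day 4 alone the values were -0.67 and -0.38, so the direction depended on the Control array.

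Gsr, glutathione reductase, which returns oxidised glutathione to its reduced form, stayed under 5 in every array. Its log2 signal was 4.11 and 4.46 in Control Day 4 and Day 6, 4.73, 4.71 and 4.37 in Galactose, and 3.57 and 4.46 in Glutamate. The groups overlapped.

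Slc7a11, the light chain of the cystine-glutamate antiporter xCT, which brings in cystine in exchange for glutamate, had a low and uneven signal. It was 5.11 and 3.30 on the log2 scale in Control Day 4 and Day 6, 3.76, 4.18 and 4.21 in Galactose, and 5.47 and 4.17 in Glutamate. It exceeded 5 in Control Day 4 and Glutamate 1 alone, and arrays of each group overlapped with those of the others. The log2 fold change was -0.16 for Galactose over Control and 0.77 for Glutamate over Galactose (standard error 0.59 for both, limma adjusted p = 0.89 and 0.916). The latter was 0.12 without Glutamate 1 and 1.42 without Glutamate 2. The Galactose mean lay 1.06 below Control Day 4 and 0.75 above Control Day 6.

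Slc3a2, the heavy chain (CD98) that carries xCT and other amino acid transporters to the cell surface, had the largest difference between the Galactose and Control means among the members, though not against Control Day 4 alone. The log2 signal was 7.80 and 6.47 in Control Day 4 and Day 6, 8.50, 8.95 and 8.997 in Galactose, and 8.70 and 7.81 in Glutamate. The Galactose arrays lay above both Control arrays, and so did the Glutamate arrays, of which Glutamate 2 was almost level with Control Day 4. The Galactose mean was 3.21-fold above the Control mean, a log2 fold change of 1.68 (standard error 0.45, 95% interval 0.60 to 2.77; unadjusted p = 0.00812, limma adjusted p = 0.174). For Glutamate over Galactose the log2 fold change was -0.56 (standard error 0.45, adjusted p = 0.927; -1.01 without Glutamate 1 and -0.11 without Glutamate 2), and for Glutamate over Control it was 1.13 (standard error 0.50, adjusted p = 0.73).

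**Figure D2:**
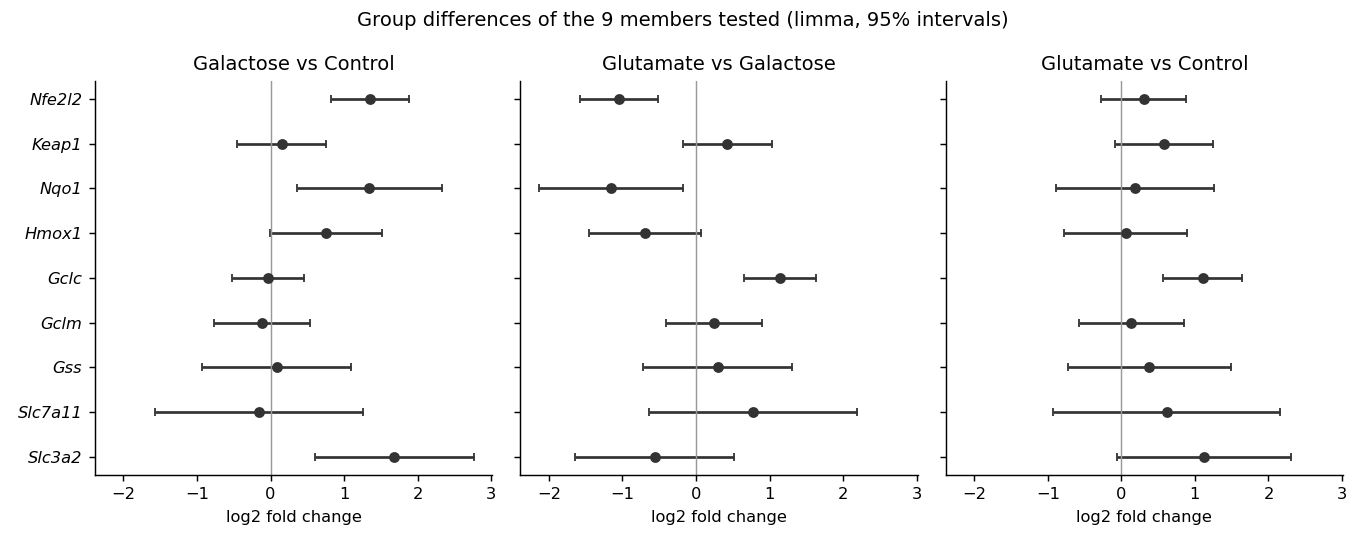
Log2 fold changes (horizontal axis) of the 9 genes tested, for the 3 comparisons of groups. Points are estimates of limma and bars are 95% intervals without adjustment for the number of probes, so an interval clear of 0 is not a call. For Galactose over Control the intervals of Nfe2l2, Nqo1 and Slc3a2 lay above 0, and for Glutamate over Galactose those of Nfe2l2 and Nqo1 lay below 0 and that of Gclc above.

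Counted over the members, no gene changed at an adjusted p under 0.05 in limma. For Galactose over Control 0 of 9 passed, against 0.094% of all 5320 probes tested, and 3 of 9 (Nfe2l2, Slc3a2 and Nqo1) had an unadjusted p under 0.05, against 17.0% of all probes. Nqo1 is in this count and the next only through the Galactose arrays in which it exceeded 5, so its place there was favoured by the minimum. For Glutamate over Galactose 0 of 9 passed, against 0.0% of all probes, and 3 of 9 (Gclc higher, Nfe2l2 and Nqo1 lower) had an unadjusted p under 0.05, against 5.53%. For Glutamate over Control 0 of 9 passed, against 0.0% of all probes, and 1 of 9, Gclc, had an unadjusted p under 0.05, against 6.62%.

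The groups were also compared by whether their arrays overlapped. Of the 10 members, 4 (Nfe2l2, Nqo1, Hmox1 and Slc3a2) had every Galactose array above both Control arrays, where the share of all probes was 21.5%, and 0 had every Galactose array below, where it was 12.1%. Between Galactose and Glutamate, 3 members (Keap1, Gclc and Gss) were higher in Glutamate without overlap and 2 (Nfe2l2 and Nqo1) were lower. The shares of all probes were 7.76% higher and 21.7% lower. Nqo1 is in the first count and in the lower one, and its place in both was favoured by the minimum. The shares are over the 5320 probes tested, whereas the 10 members include Gsr, which was not tested and whose groups overlapped. Between Control and Glutamate, 4 members (Nfe2l2, Keap1, Gclc and Slc3a2) were higher without overlap and 0 lower, with 13.3% and 15.0% of all probes.

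The members did not move as a block. The median difference of group means over the 10 was 0.23 for Galactose over Control, with 7 means higher, against a median of 0.17 over all probes tested. For Glutamate over Galactose it was -0.15, with 5 means higher and 5 lower, against -0.11, and it turned to 0.039 after a second quantile normalisation. For Glutamate over Control it was 0.34, with 9 means higher, against 0.06. These medians include Gsr, which was not tested. Over the 9 tested members they were 0.15, 0.25 and 0.38 in the same order. The sign of the median for Glutamate over Galactose thus depended on whether Gsr was included. By a fold rule of the kind used in the study (a Galactose mean 2-fold or more above Control, and a Glutamate mean 1.5-fold or more below Galactose), 2 of the 10 were taken, against 4.77% of all probes. They were Nfe2l2, and Nqo1 with the same limit. Their Glutamate means lay 2.07-fold and 2.23-fold below Galactose. To choose genes for RT-qPCR the study required a larger fall than 1.5-fold, a step that was not applied here.

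The Control arrays differed from each other more than any other pair of one group, and this touches several members. They were more than 2-fold apart at 1521 of the 5320 probes, 1352 of which were higher in Control Day 4, whereas pairs within the other groups were that far apart at 35 to 320 probes. Their culture time also differed, and the part of either in the results cannot be told apart. Set against each Control array in turn, the Galactose mean of Nfe2l2 was higher by 1.22 (Day 4) and 1.48 (Day 6), and that of Nqo1 by 1.65 and 1.03. For Slc3a2 the values were 1.02 and 2.35, so its size depended on the array chosen. Keap1, Gclc, Gclm, Gss and Slc7a11 changed sign between the Control arrays. The Glutamate mean of Gclc was above both, by 1.26 and 0.95, and that of Slc3a2 by 0.46 and 1.79. When Control Day 4 was left out, Nfe2l2 (log2 fold change 1.48, limma adjusted p = 0.0103), Slc3a2 (2.35, adjusted p = 0.011) and Gss passed the threshold for Galactose over Control. In the same fit Slc3a2 (1.79, adjusted p = 0.0393), Gclc (0.95, adjusted p = 0.0382) and Gss passed for Glutamate over Control. That fit has a single Control array, assumed to vary like the other groups, and 1718 and 900 probes passed in these comparisons, against 5 and 0 with all arrays.

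**Figure D3:**
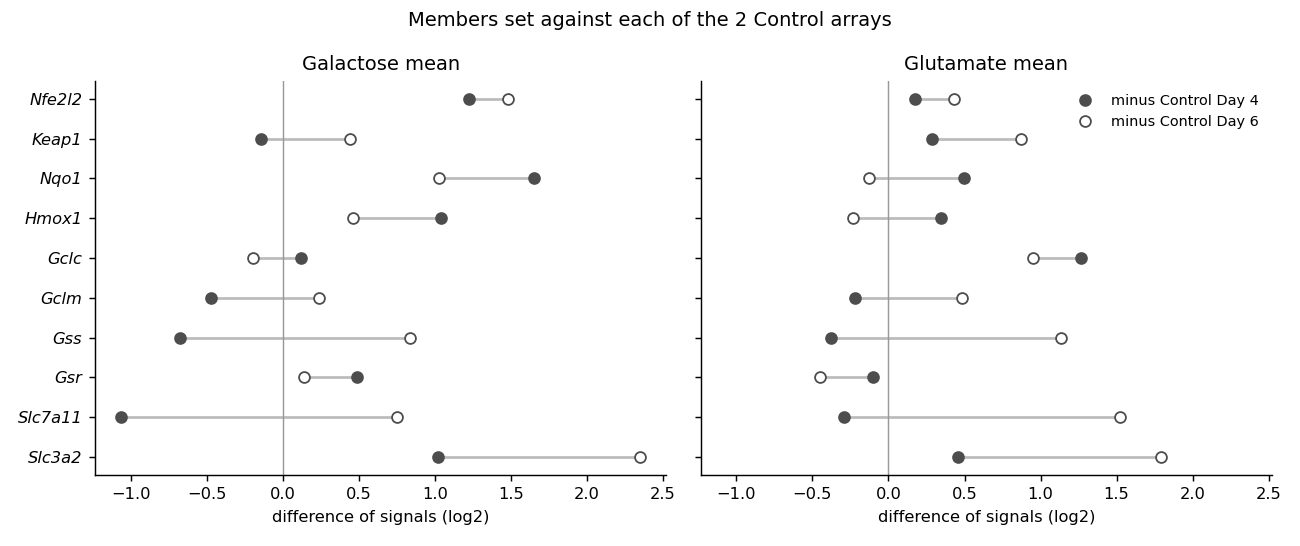
Difference on the log2 scale (horizontal axis) between the Galactose mean (left) or the Glutamate mean (right) and each Control array, for each of the 10 genes. Filled points are differences from Control Day 4 and open points from Control Day 6, joined by a line. For Nfe2l2, Nqo1, Hmox1, Gsr and Slc3a2 both Galactose points lie above 0, and the Glutamate points do so for Nfe2l2, Keap1, Gclc (1.26 and 0.95) and Slc3a2.

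The labelled tissue was checked against marker genes. All 7 fibre markers with a probe (among them Mip, Lim2 and Cryab) and all 7 epithelial markers (among them Foxe3, Pax6 and Cdh1) exceeded 5 in at least 1 array. Cryab, a bright gene of fibres, stands in both lists and adds to both sums. Of the markers of ciliary body and iris (5 with a probe), retina (5) and vessels and blood cells (2), 0 did. Of the leukocyte markers 1 of 6 did, Cd68, and of the fibroblast markers 1 of 6 did, Pdgfra. With 1 marker of a list above 5, the sum of that list does not show that the cell type was present. The log2 of the summed fibroblast signals was 6.88 to 7.51 in Control, 5.89 to 6.25 in Galactose and 6.17 to 6.67 in Glutamate, and that of the leukocyte signals was 5.25 to 5.99, 5.56 to 6.20 and 5.92 to 5.94. The epithelial sum was 12.90 to 13.30, 13.17 to 13.25 and 13.20 to 13.20, and the fibre sum was 14.92 to 14.99, 14.88 to 14.90 and 14.99 to 15.00. The part of these values in the members' differences was not tested.

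Among the regulators around Nrf2, 4 of 12 tested had every Galactose array above both Control arrays and 1 below, against 21.5% and 12.1% of all probes, and 4 were lower and 0 higher in Glutamate than in Galactose without overlap, against 21.7% and 7.76%. Of these 12, of 18 with a probe, 0 changed in limma, and at an unadjusted p under 0.05 the counts were 0 for Galactose over Control and 1 lower for Glutamate over Galactose, against 17.0% and 5.53%. The median log2 fold changes were 0.02 and -0.17, and both turned after a second quantile normalisation, to -0.22 and 0.02. Dpp3, a peptidase that competes with Nrf2 for Keap1, had log2 signals of 5.59 and 4.98 in Control Day 4 and Day 6, 5.92, 5.88 and 6.01 in Galactose, and 5.59 and 4.33 in Glutamate. Its log2 fold change for Glutamate over Galactose was -0.97 (standard error 0.39, limma adjusted p = 0.853), with Glutamate 2 much the lower of the pair, and it was -0.34 without Glutamate 2. Cul3, the scaffold of the ligase that ubiquitinates Nrf2, had 8.51 and 7.79, 7.63, 7.70 and 8.14, and 8.76 and 7.80 in the same order, so that its groups overlapped. Sqstm1, the autophagy adaptor p62, which binds Keap1 and is itself an Nrf2 target, had 8.002 and 8.83, 8.06, 8.56 and 8.72, and 7.79 and 8.05, with the Control arrays on both sides of most others. Mafg, a partner of Nrf2 on DNA, and Bach1, a repressor at the same sites, did not exceed 5 in any array.

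Of the other known targets of Nrf2 with a probe, 21 of 36 were higher on average in Galactose than in Control and 15 lower. Over all probes tested, 62.0% were higher. Of 17 tested, of 36 with a probe, 0 changed in limma, and 2 (Prdx1 and Fth1) were higher at an unadjusted p under 0.05 for Galactose over Control. For Glutamate over Galactose 1, Blvrb, was lower at that level. The shares of all probes at that level were 17.0% and 5.53%, in either direction. Blvrb, Txnrd1 and Abcc1 exceeded 5 in Galactose arrays alone and entered the test only through them. The medians were 0.54 and -0.35, against 0.17 and -0.11 over all probes. After a second quantile normalisation they were 0.40 and -0.14, against -0.02 and 0.02. For Galactose over Control 5 of the 17 were higher without overlap, and for Glutamate over Galactose 8 were lower. The shares of all probes were 21.5% and 21.7%. Blvrb and Txnrd1 are in both counts, and their place there was favoured by the minimum. The median for Galactose over Control was 0.88 without Control Day 4 and -0.02 when Control Day 6 was left out instead. The median difference of Control Day 6 from Control Day 4 over the list was -1.07.

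Prdx1, a peroxiredoxin that removes peroxides, had log2 signals of 6.70 and 4.77 in Control Day 4 and Day 6, 6.96, 7.10 and 7.07 in Galactose, and 6.84 and 6.80 in Glutamate. Control Day 6 was the array that stood apart. The log2 fold change for Galactose over Control was 1.31 (standard error 0.51, limma adjusted p = 0.277). It was 2.27 without Control Day 4 and 0.34 without Control Day 6, in fits with a single Control array. Fth1, the heavy chain of ferritin, which stores iron, had 10.61 and 9.06 in Control, 11.10, 10.95 and 10.91 in Galactose, and 10.45 and 10.65 in Glutamate, with Control Day 6 again the lowest.

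Blvrb, a biliverdin reductase that acts after haem oxygenase, had log2 signals of 4.28 and 3.80 in Control Day 4 and Day 6, 5.06, 5.78 and 4.30 in Galactose, and 3.36 and 4.09 in Glutamate. The log2 fold change for Glutamate over Galactose was -1.32 (standard error 0.46, limma adjusted p = 0.853), with the limit that 2 Galactose arrays alone exceeded 5. Txnrd1, thioredoxin reductase 1, had 4.38 and 4.89, 4.96, 5.27 and 5.06, and 4.07 and 4.89 in the same order, so that its Galactose arrays lay just above all others, and 2 of them alone exceeded 5. Gstp1, a glutathione transferase, had 5.85 and 4.57, 5.84, 6.90 and 6.42, and 5.08 and 5.93, and the groups overlapped. Me1, a malic enzyme that makes NADPH, had 5.43 and 4.78, 4.60, 4.76 and 4.85, and 5.19 and 4.85, and Abcc1, an exporter of glutathione conjugates, had 4.66 and 4.70, 4.41, 4.47 and 5.06, and 4.89 and 4.63. Neither of them separated the groups. Srxn1, sulfiredoxin, and Gsta4, a transferase for lipid aldehydes, did not exceed 5 in any array.

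Genes for the supply, breakdown and transport of glutathione and its amino acids were mostly dim. Of 25 with a probe, 8 were tested and 0 changed in limma. At an unadjusted p under 0.05, Lancl1 and Slc25a11 were higher and Chac1 lower for Galactose over Control, and 0 differed for Glutamate over Galactose, against 17.0% and 5.53% of all probes. The medians were -0.07 and -0.12 (-0.23 and 0.06 after a second quantile normalisation, which turned the latter). Chac1, which cleaves glutathione in the cytosol, had log2 signals of 7.81 and 7.07 in Control Day 4 and Day 6, 6.66, 5.54 and 5.75 in Galactose, and 6.83 and 6.07 in Glutamate. All Galactose and Glutamate arrays lay below both Control arrays. The log2 fold change for Galactose over Control was -1.45 (standard error 0.43, limma adjusted p = 0.198). Lancl1, a glutathione-binding protein, had 5.36 and 4.75 in Control, 5.94, 5.56 and 5.56 in Galactose, and 5.44 and 5.20 in Glutamate. Its log2 fold change was 0.63 for Galactose over Control and -0.37 for Glutamate over Galactose. The standard error was 0.26 for both, with limma adjusted p = 0.291 and 0.916. The value for Galactose over Control was 0.94 without Control Day 4 and 0.32 without Control Day 6, in fits with a single Control array. Slc25a11, a mitochondrial carrier of oxoglutarate, had 7.85 and 6.08, 7.85, 8.28 and 8.29, and 7.85 and 7.77, with Control Day 6 alone set apart. The glutamate transporter gene Slc1a1, the glutamine transporter gene Slc1a5 and Oplah, which turns oxoproline back into glutamate, did not exceed 5 in any array.

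Slc3a2 also serves other light chains, of which Slc7a5 and Slc7a8 were tested. Slc7a5, the LAT1 transporter of large neutral amino acids, had log2 signals of 6.58 and 7.21 in Control Day 4 and Day 6, 7.09, 7.36 and 7.43 in Galactose, and 6.64 and 7.09 in Glutamate. Its groups overlapped. Slc7a8, the LAT2 transporter, had 8.66 and 7.07, 8.12, 9.24 and 9.47, and 9.13 and 9.06 in the same order. Its Galactose arrays overlapped with both other groups, and both Glutamate arrays lay above both Control arrays. In this list 0 of 2 changed in limma and 0 had an unadjusted p under 0.05, against 17.0% and 5.53% of all probes. The medians were 0.74 for Galactose over Control and -0.14 for Glutamate over Galactose, against 0.17 and -0.11 over all probes tested. The first was 0.98 without Control Day 4 and 0.50 without Control Day 6. After a second quantile normalisation the medians were 0.41 and 0.07, which turned the latter.

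Of 25 enzymes that use glutathione with a probe, 18 had a Galactose mean above the Control mean and 7 below. In 7 the Glutamate mean lay above the Galactose mean and in 18 below. Over all probes tested, the Galactose mean exceeded that of Control at 62.0%, and the Glutamate mean exceeded that of Galactose at 35.4%. These shares cover tested probes only. Of the 25 enzymes 12 were tested, and 2 of them, Glrx5 and Gsto1, entered only because they exceeded 5 in Galactose 1. None of the 12 changed in limma, and 1, Gpx1, had an unadjusted p under 0.05 for Galactose over Control, and 0 did for Glutamate over Galactose, against 17.0% and 5.53% of all probes. The medians of the tested enzymes were 0.81 and -0.30, against 0.17 and -0.11 over all probes tested. After a second quantile normalisation they were 0.69 and -0.21, against -0.02 and 0.02. The median for Galactose over Control was 1.79 without Control Day 4 and 0.08 when Control Day 6 was left out instead. The median difference of Control Day 6 from Control Day 4 over the list was -1.74. Gpx1, a selenium enzyme that reduces peroxides with glutathione, had log2 signals of 6.61 and 4.47 in Control Day 4 and Day 6, 7.57, 7.35 and 7.21 in Galactose, and 6.47 and 6.17 in Glutamate. The Galactose arrays lay above all others, and Control Day 6 far below them. The log2 fold change was 1.84 for Galactose over Control and -1.06 for Glutamate over Galactose (standard error 0.57 for both, limma adjusted p = 0.206 and 0.908). The former was 0.77 without Control Day 6 and 2.90 without Control Day 4, in fits with a single Control array. Glrx, a glutaredoxin, did not exceed 5 in any array.

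**Figure D4:**
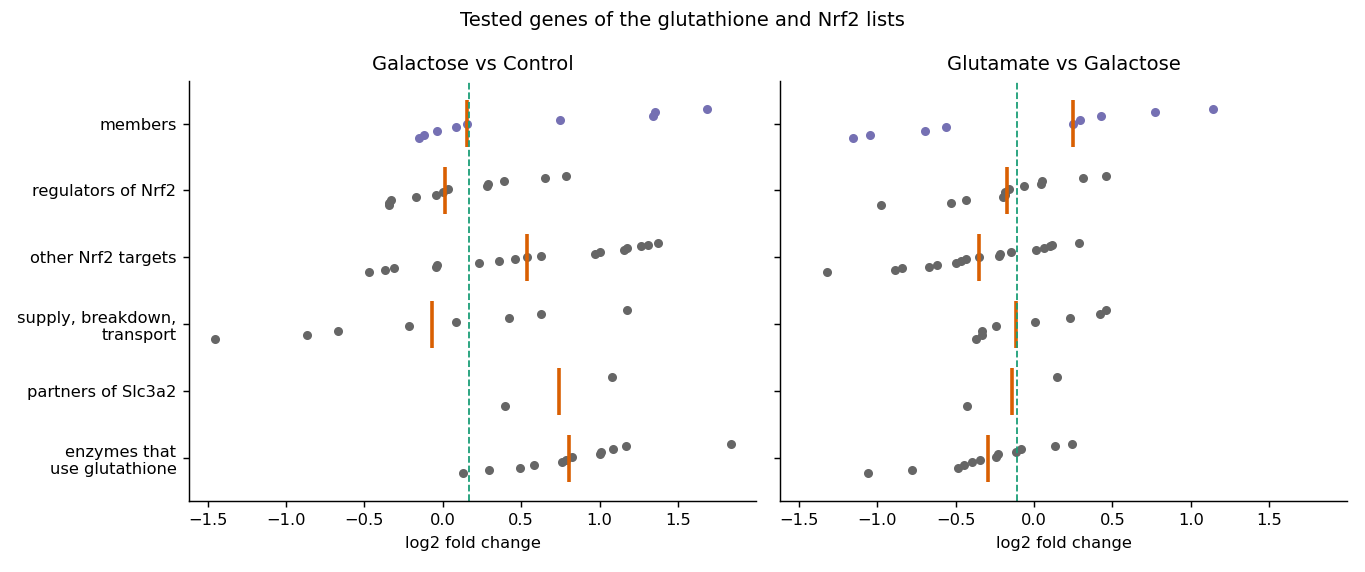
Log2 fold changes (horizontal axis) of the tested genes of each list, for Galactose over Control (left) and for Glutamate over Galactose (right). Each point is a gene (the 9 tested members in purple), the orange bar is the median of the list and the dashed line is the median of all probes tested (0.17 and -0.11). The tested enzymes that use glutathione, of which Glrx5 and Gsto1 entered only through a Galactose array, lie above 0 on the left, and the members spread to both sides on the right.

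The genes most like Nfe2l2 and Gclc were found by Pearson's r over the 7 arrays, among 2809 probes with 1 gene and a range of at least 1 on the log2 scale. All points share the same 7 arrays, and the values are a description. The genes were picked for this likeness, so a pattern shared with Nfe2l2 or Gclc follows from the choice. For Nfe2l2 they were Ppp1r15a, which promotes the dephosphorylation of eIF2α (r = 0.98), Tmco4 (0.98), Emd, the nuclear envelope protein emerin (0.98), Myl12a, a myosin light chain (0.97), and Prr13 (0.97). Ppp1r15a had log2 signals of 6.53 and 6.51 in Control Day 4 and Day 6, 7.17, 7.58 and 7.36 in Galactose, and 6.49 and 6.62 in Glutamate. Like Nfe2l2 it was highest in the 3 Galactose arrays. For Gclc they were Lgals3, galectin 3 (0.94), Psapl1 (0.89), Mir181d (0.88), Dsc2, a desmosomal cadherin (0.88), and Pvalb, the calcium-binding protein parvalbumin (0.86). Lgals3 had 9.50 and 9.48, 9.12, 9.50 and 9.35, and 10.14 and 10.02 in the same order. Like Gclc it was highest in both Glutamate arrays, with the Control and Galactose arrays overlapping.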

How the data were processed

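Total RNA of 7 lens cultures was measured on GeneChip Rat Gene 2.0 ST arrays. The authors applied the Robust Multi-array Average algorithm to the whole set, which gave the log2 signals of 36685 probes that were deposited. The original scanner values were not used here. Of these probes, 18511 had 1 gene in the platform annotation, 575 several and 17599 none, and a member or list gene was named only from a probe with 1 gene. A gene with several probes was represented by its brightest, judged by the mean of the 7 arrays; all 10 members had 1 probe.

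The test between groups was that of limma 3.58.1 (R 4.3.3; lmFit and eBayes, 1 mean per group, all 7 arrays, 4 residual and 2.73 prior degrees of freedom). The test ran over the 5320 probes with a gene and a log2 signal above 5 in at least 1 array (27.9%), with Benjamini-Hochberg adjustment over all of them and a threshold of 0.05. The minimum of 5 is that of the study, whose methods name no such test; the annotation and the set of probes here differ from those of the study. The deposited table has no read depth, and the number of arrays limits the precision. The script was tested on simulated data. Tables and figures were made with Python 3.11.15, numpy 2.4.6, pandas 2.3.3 and matplotlib 3.10.9.

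The members and the lists around them were chosen with earlier results of these data known. From each list a fixed set of names was described, together with the gene of largest difference without overlap in each step. Fth1, Slc25a11, Slc7a8, Glrx5 and Gsto1 fall outside that rule and were named after their values were seen. A few of the fixed names are not reported here. For Nfe2l2 and Gclc the 5 most correlated genes were named. Alternatives were no filter, a signal above 5 in 2 arrays, a second quantile normalisation, median centring, an intensity trend, array weights, only the arrays of the groups compared, a replicate block and leaving out each array. The mean of a gene's probes is the same as the single probe for every member. RefSeq promoter windows (GRCr8) were searched on both strands. RT-qPCR and opacity measurements were not analysed here.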

Additional observations from a re-analysis of the deposited data

How the results depend on the processing

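Over the alternatives, Nfe2l2 kept log2 fold changes of 1.12 to 1.48 from Control to Galactose and -1.17 to -0.86 from Galactose to Glutamate, and Gclc 1.05 to 1.26 from Galactose to Glutamate (adjusted p 0.0868 to 1.0 in limma). Called probes from Control to Galactose, 5 over all arrays, numbered 0 without the filter, 21 after a second quantile normalisation, 11 after median centring, 0 with array weights, 1 with the arrays of these groups only, and 0 to 1718 leaving out each array. From Galactose to Glutamate there was 1 with array weights, and from Control to Glutamate 1 after the quantile normalisation and 0 to 900 leaving out each array. Called members numbered 0 to 3 in both comparisons with Control when each array was left out, the 3 being those without Control Day 4.

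The median over all 10 members ranged from 0.21 to 0.61, -0.20 to 0.14 and 0.23 to 0.68 when each array was left out. The order of these 3 comparisons is Control to Galactose, Galactose to Glutamate, Control to Glutamate. From Galactose to Glutamate the median was 0.039 after the quantile normalisation. The fold rule took 152 probes after that normalisation and 132 to 365 leaving out each array. The second quantile normalisation moved the median of all probes from 0.17 to -0.02, from -0.11 to 0.02 and from 0.06 to 0.00, and the share with a higher mean from 62.0% to 48.9%, from 35.4% to 52.5% and from 56.1% to 50.6%.

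For Glutamate over Galactose no member turned, but leaving out each array Slc3a2 ranged from -1.01 to -0.11, Slc7a11 from 0.12 to 1.42, Hmox1 from -0.997 to -0.39, Keap1 from 0.22 to 0.64, Gclm from 0.11 to 0.39 and Gss from 0.13 to 0.46. In the comparisons with Control, directions turned for members without a call. From Control to Galactose, Gss was -0.036 after the quantile normalisation and Gclc 0.019 with array weights. Leaving out each array, Gclc ranged from -0.20 to 0.12, Gclm from -0.47 to 0.24, Gss from -0.67 to 0.84, Keap1 from -0.14 to 0.44 and Slc7a11 from -1.06 to 0.75. From Control to Glutamate, Hmox1 was -0.18 after the quantile normalisation, and leaving out each array it ranged from -0.25 to 0.36, Nqo1 from -0.16 to 0.53, Gclm from -0.22 to 0.49, Gss from -0.38 to 1.13 and Slc7a11 from -0.29 to 1.52. The cause was not tested. The Galactose and Glutamate arrays share replicate numbers 1 and 2, but the differences between numbers did not go together (r = 0.0046 over probes). With the number as a replicate block 0 probes and 0 members were called (Gclc 1.20, Nfe2l2 -1.04, adjusted p = 1.0 from limma), and no call changed. Groups of 2 and 3 arrays limit what can be told. So do signals near 5 (Nqo1, Gsr, Slc7a11, Keap1, and Gclc in the Control and Galactose arrays).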
